A study of Mus musculus with 4 samples.

Results

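The insulin-like growth factor (IGF) axis was examined in mouse heart through 10 genes chosen by name: the ligands Igf1 and Igf2, the receptor Igf1r, the binding proteins Igfbp3, Igfbp4, Igfbp5, Igfbp6 and Igfbp7, and the receptor substrates Irs1 and Irs2. They are 10 of the 23282 rows in the expression data, each symbol standing on 1 row, and all 10 passed the count minimum in every comparison. The ligands bind a receptor tyrosine kinase at the cell surface, which phosphorylates the insulin receptor substrates and through them signals to PI3K, AKT and mTOR and to the MAP kinases. The IGF binding proteins hold the ligands in blood and matrix, where they can withhold them from the receptor or, once cut by proteases, release them. In the heart the axis is known for its part in cardiomyocyte growth and survival, and the insulin receptor shares its substrates.

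The study asked how treadmill exercise changes gene expression in mice with and without a tumor. Hearts of CDF1 mice, a hybrid of the BALB/c and DBA/2 strains, were compared in 4 groups that crossed exercise (E) with tumor (T). E(-)T(-) mice were neither exercised nor injected, E(+)T(-) mice ran on a treadmill at high intensity every other day, E(-)T(+) mice received CT26 cells, a mouse colorectal carcinoma line, through the tail vein and did not run, and E(+)T(+) mice received the cells and ran. Below, libraries of mice that did not run are called sedentary. All groups were male by the study's methods. The labels give postnatal day 28 as the age of every group, while by the methods the mice were about that old when bought and were killed later. There was 1 library per group. A representative mouse per group is named for the skeletal muscle libraries of the study, and for the heart the sources used here do not spell out whether a library is 1 heart or a pool. Thus no difference below has a replicate check and no p-value is given.

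The libraries were made with QuantSeq, which sequences the 3′ end of mRNA, and the deposited value is log2(normalized read count + 1). Whole reads were recovered from these values, with totals from 6595422 in E(-)T(-) to 11545983 in E(+)T(+). The E(+)T(+) library stands apart, because globin genes took 37.3% of its reads against 7.86% to 8.76% in the other libraries. The summed markers of adipocytes and of lung epithelium were also highest in it, as given with the other markers below. The 10 cardiomyocyte markers all had reads in every library, with summed normalized reads of 480061 (sedentary) and 481305 (exercised) without a tumor and 509717 (sedentary) and 529949 (exercised) with a tumor. A difference is called when it reaches 2-fold and either of the 2 libraries has 4 or more normalized reads, and the brackets give 95% intervals of each read ratio by the Clopper-Pearson method. These intervals cover counting error only and say nothing of the spread between mice, and PCR copies of 1 molecule are not independent.

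The upstream DNA of the members whose levels moved furthest is shown first, from RefSeq on GRCm38.p6 and read 5′ to 3′ on the gene's own strand up to the base before the RefSeq transcript start. All 10 members matched this table, in 13 promoter windows. Irs1 (chr1:82291440-82291689, minus strand) and Irs2 (chr8:11008930-11009179, minus strand) are shown because these substrates ranked the 4 libraries differently. Capitals mark the E-box CACGTG and the insulin response sequence TTGTTTTG, a site of that name known from insulin-repressed promoters.
Irs1: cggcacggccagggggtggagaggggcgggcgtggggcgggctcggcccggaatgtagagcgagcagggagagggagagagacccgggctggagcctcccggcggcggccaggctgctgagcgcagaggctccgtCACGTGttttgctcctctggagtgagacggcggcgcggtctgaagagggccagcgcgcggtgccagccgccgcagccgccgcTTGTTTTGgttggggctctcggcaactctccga
Irs2: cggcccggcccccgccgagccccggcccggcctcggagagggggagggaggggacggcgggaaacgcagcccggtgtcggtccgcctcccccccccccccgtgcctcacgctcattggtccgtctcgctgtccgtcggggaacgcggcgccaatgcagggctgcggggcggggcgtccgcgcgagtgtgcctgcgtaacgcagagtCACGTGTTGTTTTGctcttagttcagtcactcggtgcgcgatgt

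The E-box lies 115 to 110 bases before the start of Irs1 and 44 to 39 bases before that of Irs2. The insulin response sequence lies 33 to 26 bases before the start of Irs1 and 38 to 31 bases before that of Irs2, where it directly follows the E-box. These distances hold for the RefSeq starts only. The GENCODE gene spans given below end short of both stretches, at 82291416 for Irs1 and, further off, at 11008458 for Irs2. The annotations thus place the starts differently. On both strands, 6.02% of 32851 promoter windows held CACGTG and 2.21% held TTGTTTTG, and 33 windows (0.10%) held both. The FoxO consensus TGTTTAC (3.17% of windows), the STAT site TTCNNNGAA (7.02%) and the cAMP response element TGACGTCA (1.55%) had no match in the 13 windows. Only these letters were sought, so other forms of these sites, those for FoxO factors included, may be present. The motifs were chosen after the letters were seen, so these shares do not measure how unusual it is that both substrates hold the pair. A match is a description and not a binding site.

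The ligand Igf1 (chr10:87860991-87861110, plus strand) and the binding proteins Igfbp3 (chr11:7213924-7214043, minus strand) and Igfbp4 (chr11:99041124-99041243, plus strand) are shown because all 3 were called higher in E(-)T(+) than in E(-)T(-). The Igf1 stretch lies inside the gene span given below, so it precedes an internal RefSeq start. With 13 windows for 10 members, some members have several windows, and a single window is shown per gene. Capitals mark the TATA box TATAAA, which 12.4% of the promoter windows held. Only these exact letters were sought, so a TATA-like run with other letters, as in Igfbp3, stays in small letters.
Igf1: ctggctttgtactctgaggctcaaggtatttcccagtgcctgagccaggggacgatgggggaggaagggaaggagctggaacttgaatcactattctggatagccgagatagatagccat
Igfbp3: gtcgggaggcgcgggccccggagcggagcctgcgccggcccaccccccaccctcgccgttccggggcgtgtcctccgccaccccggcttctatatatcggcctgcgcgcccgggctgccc
Igfbp4: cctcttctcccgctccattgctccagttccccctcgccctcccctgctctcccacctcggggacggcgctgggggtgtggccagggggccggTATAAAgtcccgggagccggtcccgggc

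These 3 stretches differ in composition, with 52.5% G and C in Igf1 against 79.2% in Igfbp3 and 72.5% in Igfbp4. Each value holds for the window shown only. The TATA box of Igfbp4 lies 28 to 23 bases before its start.

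In the hearts of mice that did not run, the tumor library held more Igf1, Igfbp3, Igfbp4 and Irs2. For E(-)T(+) vs. E(-)T(-), 4 of 10 members were higher by 2-fold or more and 0 were lower, against 14.6% of the 14317 genes that passed the count minimum called higher and 13.1% called lower. The median log2 difference of the members was 0.38, against -0.02 over the 11633 genes whose mean normalized read count was 16 or more. All 10 members have such a mean, and of these 11633 genes 10.0% were called higher and 10.1% lower. Igf2 and Igf1r differed by less than counting error here, and Irs1 was lower without reaching 2-fold.

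Among the tumor-bearing mice, the library of the exercised group held less of every member, by amounts that ranged up to 3.94-fold for Igfbp3 and were so small for Igf2 and Igfbp5 that median-of-ratios scaling turned them to 0.0050 and 0.0016 on the log2 scale. For E(+)T(+) vs. E(-)T(+), 2 of 10 members (Igfbp3 and Igfbp4) were lower by 2-fold or more and 0 were higher, against 10.0% of 14363 genes called lower and 9.39% called higher. Among the 11633 genes with a mean of 16 or more, 5874 were lower by any amount and 5748 higher. Of these genes, 5.78% were called lower and 5.56% higher. Igfbp7 and Igf1 stood just inside the 2-fold line and passed it when values were divided by library size or when genes over 1% of a library were left out, and for 6 of 10 members the interval included 0. The median of the members was -0.40, against -0.01 over all genes. All 4 comparisons share libraries in pairs, and this one and the previous one both use E(-)T(+), so a high value there enters both.

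**Figure D1:**
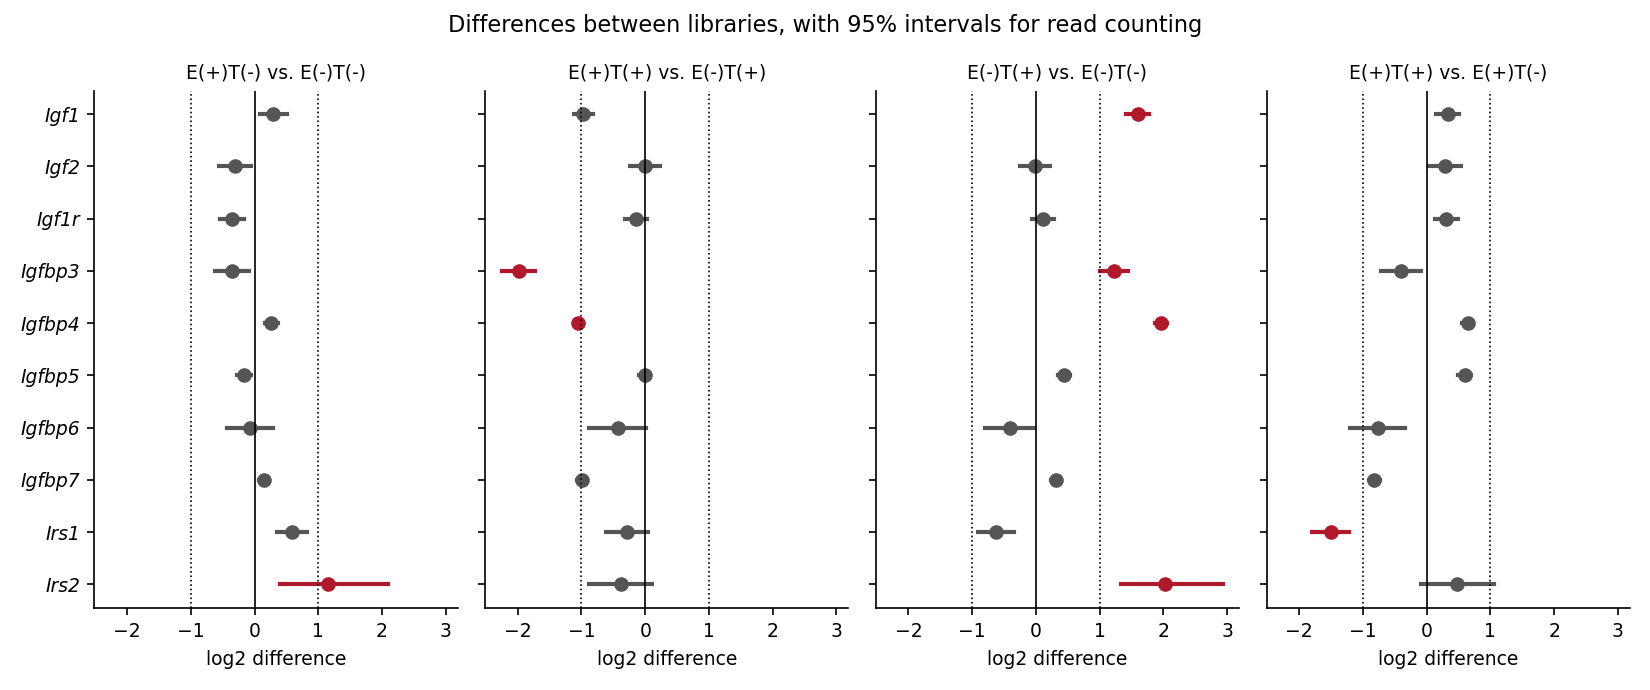
Log2 differences of the 10 IGF axis genes between libraries in the 4 comparisons, with lines for the 95% counting intervals, dotted lines at 2-fold and called genes in red. The called genes are Irs2 in the first panel (1.16), Igfbp3 (-1.98) and Igfbp4 (-1.05) in the second, Igf1, Igfbp3, Igfbp4 and Irs2 in the third and Irs1 (-1.50) in the fourth.

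Exercise without a tumor moved the members little, apart from the substrates. For E(+)T(-) vs. E(-)T(-), 1 of 10 members (Irs2) was higher by 2-fold or more and 0 were lower, against 5.88% of 13937 genes called higher and 6.40% called lower. Among genes with a mean of 16 or more, 2.84% were called higher and 2.67% lower. The other differences ran from -0.36 to 0.59 on the log2 scale, with 5 of 10 members higher and 5 lower and a median of 0.03. For 9 of 10 members the interval left out 0, so most of these small differences were larger than read counting alone would give between the 2 libraries.

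With exercise in both groups, Irs1 was the member past 2-fold. For E(+)T(+) vs. E(+)T(-), 1 of 10 members (Irs1) was lower by 2-fold or more and 0 were higher, against 11.1% of 14289 genes called lower and 12.0% called higher. Among genes with a mean of 16 or more, 8.21% were called lower and 7.08% higher, so the share of members called lay near the background. The median of the members was 0.30, against -0.03 over all genes. Directions in this comparison depended on the scaling, because dividing by library size moved the median of all genes to -0.74, and Igf1, Igf2, Igf1r, Igfbp4, Igfbp5 and Irs2, all higher as deposited, then became -0.39, -0.43, -0.41, -0.07, -0.12 and -0.23.

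**Figure D2:**
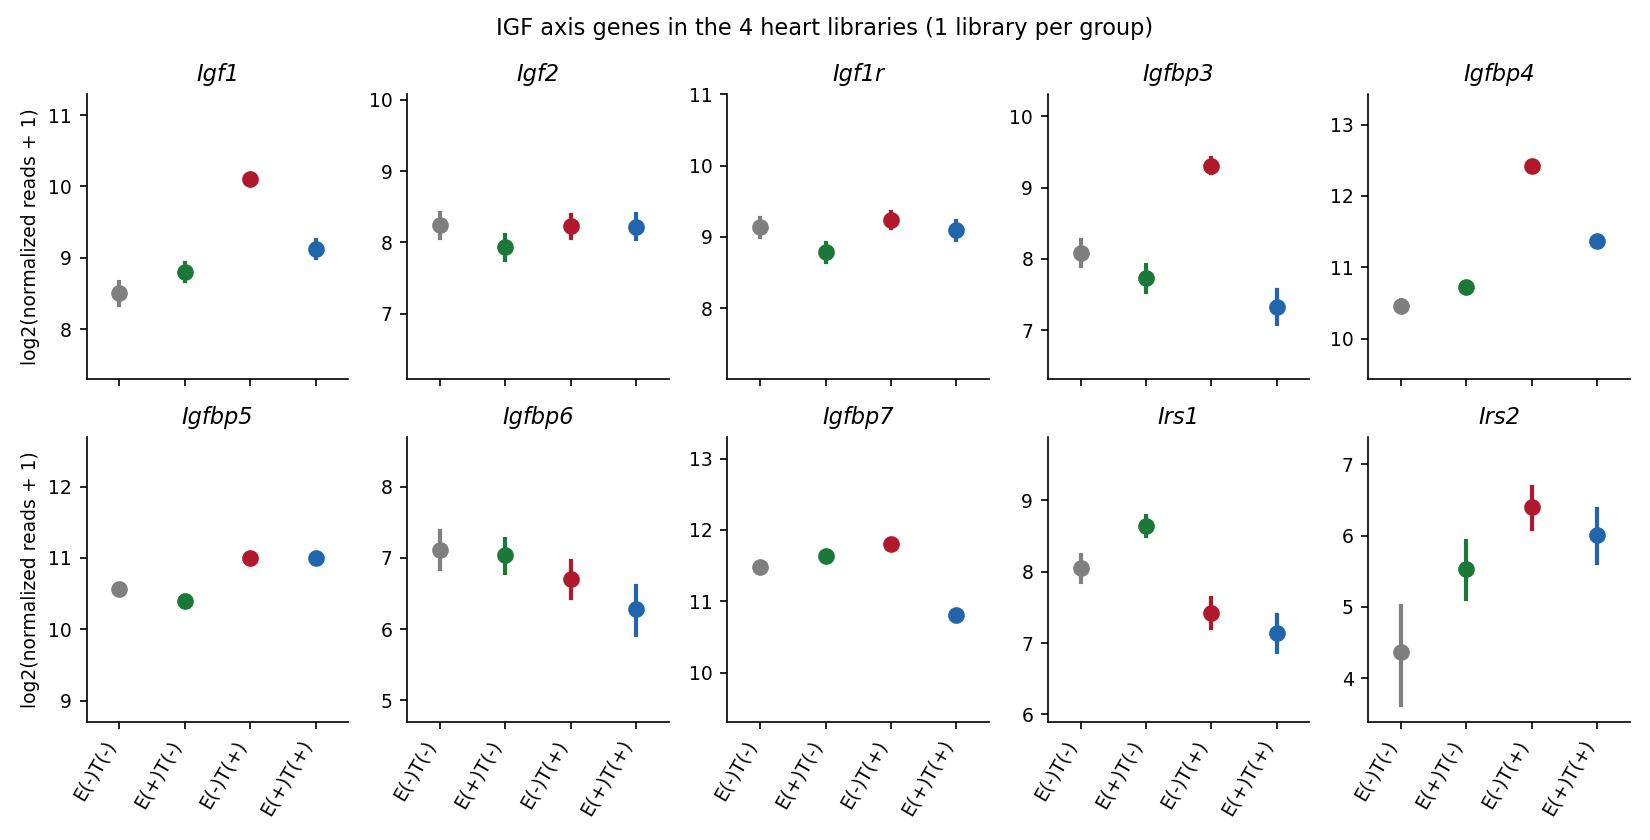
Levels of the 10 IGF axis genes as log2(normalized reads + 1) in the 4 heart libraries, 1 point per library, with lines for the 95% counting intervals. Every panel spans the same log2 distance. Igf1, Igfbp3 and Igfbp4 peak in E(-)T(+), Irs1 and Irs2 order the libraries differently, and Igf2 and Igf1r vary by less than 0.5.

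Igf1 (chr10:87858265-87937042, plus strand) encodes the growth hormone-responsive ligand that heart cells also make locally. Its normalized read counts were 362 (sedentary) and 444 (exercised) without a tumor and 1096 (sedentary) and 559 (exercised) with a tumor, from 316, 491, 1242 and 511 reads. All neighbours in this order were separated beyond counting error, and the tumor library of mice that did not run stood above the rest. The log2 difference was 1.59 [1.42, 1.78] for E(-)T(+) vs. E(-)T(-), a 3.02-fold higher value, and 0.33 [0.15, 0.51] for E(+)T(+) vs. E(+)T(-). Exercise went with a higher Igf1 value without a tumor (0.29 [0.09, 0.50]) and a lower one with a tumor (-0.97 [-1.12, -0.82]). In a bulk sample, fewer cells of a type and less RNA per cell cannot be told apart.

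Igf2 (chr7:142650766-142666816, minus strand) encodes the imprinted fetal ligand, which is expressed mainly before birth. It had 302 normalized reads (sedentary) and 243 (exercised) without a tumor and 298 (sedentary) and 297 (exercised) with a tumor. As deposited it was the member with the smallest range, although division by library size gave it a difference of -0.59 between the tumor libraries. The top 3 libraries were not separated beyond counting error, and E(+)T(-) lay below them by 0.29 [0.04, 0.54] from its nearest neighbour. The reads of Igf2 and Igf1 are uncertain in 1 respect, since the strand used in counting is not given in the sources used here and the GENCODE annotation places Igf2os and Igf1os on the opposite strands and Gm49394 over Igf2 on the same strand.

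As the 2 ligands behaved differently, the number of Igf1 reads per Igf2 read was 1.20 [1.02, 1.42] (sedentary) and 1.83 [1.57, 2.13] (exercised) without a tumor and 3.67 [3.26, 4.16] (sedentary) and 1.88 [1.62, 2.18] (exercised) with a tumor. Such a ratio within a library does not depend on the scaling between libraries. The exercised libraries thus held nearly the same ligand ratio with and without a tumor, while the libraries without exercise held the lowest and the highest.

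Igf1r (chr7:67952827-68233668, plus strand) encodes the receptor of both ligands. It had 560 normalized reads (sedentary) and 440 (exercised) without a tumor and 603 (sedentary) and 545 (exercised) with a tumor. As for Igf2, the top 3 libraries were not separated and E(+)T(-) was the lowest, by 0.31 [0.13, 0.49] below E(+)T(+). No comparison reached 2-fold. The log2 difference for E(-)T(+) vs. E(-)T(-) was 0.11 [-0.06, 0.28], and it turned to -0.05 when divided by library size.

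Igfbp3 (chr11:7206086-7213923, minus strand) encodes the main carrier of the ligands in serum, where it forms a complex with the acid-labile subunit. Its normalized read counts were 271 (sedentary) and 211 (exercised) without a tumor and 633 (sedentary) and 160 (exercised) with a tumor, from 236, 233, 717 and 146 reads. It was the member with the largest fall between the tumor libraries, with a log2 difference of -1.98 [-2.25, -1.73] for E(+)T(+) vs. E(-)T(+), after a difference of 1.22 [1.01, 1.44] for E(-)T(+) vs. E(-)T(-). In both tumor states the exercised library was the lower of the pair, and E(+)T(+) lay below E(+)T(-) by 0.40 [0.10, 0.71]. The tumor thus went with more Igfbp3 in the mice that did not run and with less in those that did.

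Igfbp4 (chr11:99041244-99054392, plus strand) encodes an inhibitory binding protein that the protease PAPP-A cuts in the presence of ligand. It had 1404 normalized reads (sedentary) and 1683 (exercised) without a tumor and 5456 (sedentary) and 2633 (exercised) with a tumor. It ranked the libraries in the same order as Igf1, with all neighbours separated beyond counting error. The log2 differences were 1.96 [1.87, 2.05] for E(-)T(+) vs. E(-)T(-), a 3.89-fold higher value, and -1.05 [-1.12, -0.98] for E(+)T(+) vs. E(-)T(+). The exercised tumor library still held more than its tumor-free counterpart, by 0.65 [0.56, 0.73], except when divided by library size.

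Igfbp5 (chr1:72857932-72874884, minus strand) encodes a binding protein that attaches to matrix. It had 1510 normalized reads (sedentary) and 1346 (exercised) without a tumor and 2044 (sedentary) and 2036 (exercised) with a tumor. The tumor libraries were the higher pair and equal within counting error, at a log2 difference of -0.01 [-0.10, 0.08]. The difference with the tumor was 0.44 [0.34, 0.54] without exercise and 0.60 [0.50, 0.70] with it, under 2-fold in both cases. This held as deposited, and division by library size gave -0.59 between the tumor libraries and -0.12 for E(+)T(+) vs. E(+)T(-).

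Igfbp6 (chr15:102144362-102149511, plus strand) encodes a binding protein that prefers IGF2, and it was the least read of the binding proteins among the members. Its normalized read counts were 137 (sedentary) and 130 (exercised) without a tumor and 103 (sedentary) and 76.7 (exercised) with a tumor. No neighbours in this order were separated beyond counting error, and the E(+)T(+) library differed from E(+)T(-) by -0.76 [-1.20, -0.34].

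Igfbp7 (chr5:77349240-77408041, minus strand) encodes a secreted protein with low affinity for the ligands that vascular cells make. It had 2867 normalized reads (sedentary) and 3168 (exercised) without a tumor and 3570 (sedentary) and 1793 (exercised) with a tumor. The E(+)T(+) library was the low one, by -0.99 [-1.08, -0.91] from E(-)T(+), 1.99-fold and so just inside the 2-fold line, and by -0.82 [-0.91, -0.74] from E(+)T(-). The other libraries lay within 0.32 of each other. Endothelial markers, 10 genes, had summed normalized reads of 10265 (sedentary) and 8346 (exercised) without a tumor and 8775 (sedentary) and 10393 (exercised) with a tumor. The list was split. For E(-)T(+) vs. E(-)T(-), 3 of 10 (Kdr, Tek and Cdh5) were lower by 2-fold or more, against 10.1% of genes with a mean of 16 or more. Another 4, Egfl7 (0.776) and Pecam1 (0.549) among them, were higher under 2-fold. The part of these cells in the Igfbp7 values was not tested.

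The binding proteins therefore changed in proportion to each other as well as in level. Of the reads of the 5 binding proteins, Igfbp7 gave 46.3% [45.0, 47.7] (sedentary) and 48.5% [47.3, 49.6] (exercised) without a tumor, but 30.2% [29.5, 31.0] and 26.8% [25.7, 27.9] with one. Igfbp4 gave 22.7% and 25.7% without a tumor, and 46.2% and 39.3% with one. The most read binding protein was thus Igfbp7 without a tumor and Igfbp4 with one, in both exercise states. Igf1 reads per 100 reads of these binding proteins were 5.85 [5.21, 6.56] (sedentary) and 6.79 [6.19, 7.44] (exercised) without a tumor and 9.28 [8.75, 9.84] (sedentary) and 8.34 [7.61, 9.13] (exercised) with a tumor. These ratios were chosen after the values were seen.

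**Figure D3:**
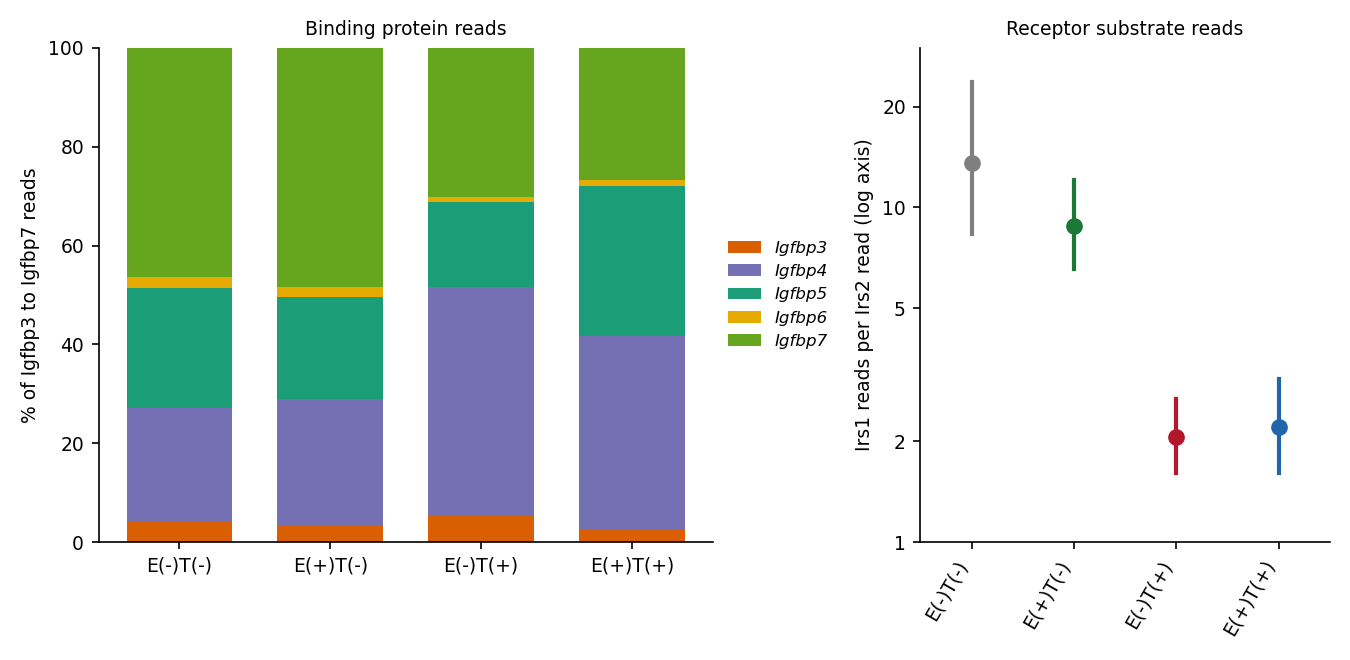
Ratios of reads within each library. Left, the percent of Igfbp3 to Igfbp7 reads that each gene gave, with Igfbp4 rising from 22.7% in E(-)T(-) to 46.2% in E(-)T(+). Right, Irs1 reads per Irs2 read on a log axis with 95% counting intervals, from 13.6 in E(-)T(-) to 2.06 in E(-)T(+).

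Irs1 (chr1:82233101-82291416, minus strand) encodes a substrate that links the IGF1 and insulin receptors to PI3K. Its normalized read counts were 265 (sedentary) and 398 (exercised) without a tumor and 171 (sedentary) and 140 (exercised) with a tumor, so that both tumor libraries lay below both libraries without a tumor. The log2 difference with the tumor was -0.63 [-0.91, -0.35] without exercise and -1.50 [-1.80, -1.22] with it, and the latter was called. Exercise went with 0.59 [0.35, 0.82] more Irs1 without a tumor, and with a tumor the difference of -0.29 [-0.62, 0.04] was within counting error.

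Irs2 (chr8:10984681-11008458, minus strand) encodes the other substrate, whose gene is known to be repressed by insulin and induced by FoxO factors. It was the least read member, with 17, 50, 94 and 58 reads and normalized read counts of 19.7 (sedentary) and 45.2 (exercised) without a tumor and 83.1 (sedentary) and 63.4 (exercised) with a tumor. E(-)T(-) lay below the other libraries, which were not separated from their neighbours in the order. The log2 difference was 2.02 [1.33, 2.93] for E(-)T(+) vs. E(-)T(-), 4.06-fold and as deposited the largest of any member, although Igfbp3 passed it with -2.56 between the tumor libraries when divided by library size, and Irs2 gave 1.16 [0.40, 2.10] for E(+)T(-) vs. E(-)T(-).

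Irs1 and Irs2 were both higher with exercise alone, and in sedentary mice the tumor went with less Irs1 and more Irs2. With exercise, the tumor difference of Irs2 was 0.48 [-0.08, 1.06], within counting error, and it turned to -0.23 when divided by library size. Irs1 reads per Irs2 read were 13.6 [8.30, 23.7] (sedentary) and 8.80 [6.56, 12.0] (exercised) without a tumor, against 2.06 [1.61, 2.67] and 2.21 [1.61, 3.06] with one. The intervals of the tumor libraries did not overlap those of the libraries without a tumor.

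The genes around the members were described from lists, and a gene entered when its mean normalized read count was 16 or more. Among proteases that cut the binding proteins and their inhibitors, 6 of 9 genes were higher by 2-fold or more and 0 lower for E(-)T(+) vs. E(-)T(-), with a median of 2.02, against 10.0% of the 11633 genes called higher at this mean. Pappa, the protease of Igfbp4, differed by 3.07 [2.27, 4.29], from 10 reads to 119. Stc1, an inhibitor of PAPP-A, differed by 3.06 [2.72, 3.47], so that the protease and its inhibitor were both higher. Mmp14 (2.09), Mmp2 (2.06), Adamts1 (2.02) and Mmp9 (1.82), which are matrix proteases able to cut binding proteins, completed the count.

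For E(+)T(+) vs. E(-)T(+), 3 of these 9 genes were lower by 2-fold or more, against 5.78% of all genes at this mean: Pappa by -2.08 [-2.85, -1.46], Mmp14 by -1.61 [-1.84, -1.40] and Mmp2 by -1.61 [-1.73, -1.49]. Stc1 was 0.50 [0.35, 0.65] higher instead, and Adamts1 differed by 0.16. The list without a tumor had no gene at 2-fold with exercise, against 2.84% of all genes called higher and 2.67% lower. For E(+)T(+) vs. E(+)T(-), 3 of 9 were higher at 2-fold, against 7.08% of all genes: Stc1 (2.85), Mmp9 (1.80) and Adamts1 (1.61). In that comparison Pappa differed by 0.72 [-0.26, 1.76].

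In growth hormone receptor signalling, which drives Igf1 transcription in liver, 3 of 10 genes were higher by 2-fold or more for E(-)T(+) vs. E(-)T(-), against 10.0% of all genes at this mean. These genes are known as negative regulators of JAK and STAT signalling. Most genes of this list are such regulators, Socs2, Ptpn1 and Ptpn6 among them, so this shared role was largely set by the list. Socs3 differed by 2.96 [2.64, 3.34], the phosphatase gene Ptpn2 by 1.39 [1.02, 1.82] and Cish by 1.24 [1.09, 1.40]. Socs3 was also called in the other comparisons, at 1.32 [0.96, 1.73] for exercise without a tumor, 1.15 [1.03, 1.28] for exercise with a tumor and 2.79 for the tumor with exercise. It was thus highest in E(+)T(+), where Igf1 was not. Ghr, the receptor, was under 2-fold throughout, with 0.12 [-0.03, 0.28] for E(-)T(+) vs. E(-)T(-) and -0.41 [-0.57, -0.25] for E(+)T(+) vs. E(-)T(+).

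Other receptors, binding proteins and adaptors gave 8 genes above the mean minimum, with 1 higher and 2 lower at 2-fold for E(-)T(+) vs. E(-)T(-), against 10.0% higher and 10.1% lower over all genes at this mean, and a median of -0.75. Igf2bp2, an RNA-binding protein of Igf2 and other mRNAs, was higher by 1.55 [0.97, 2.24]. Sh2b2, an adaptor, was lower (-1.31 [-2.34, -0.47], 16 reads against 32), as was Grb14, an inhibitor of the insulin receptor (-1.12 [-1.30, -0.93]). Insr, the insulin receptor, differed by 0.52 [0.31, 0.72] here and by -0.81 [-1.03, -0.59] for E(+)T(+) vs. E(-)T(+). Igf2r, which clears IGF2, was lower in both tumor libraries, by -0.81 [-0.99, -0.64] without exercise and -0.61 [-0.81, -0.42] with it.

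In the downstream kinases, the share past 2-fold was no larger than over all genes. Of 29 genes of PI3K, AKT and mTOR, 2 were higher and 2 lower at 2-fold for E(-)T(+) vs. E(-)T(-) (6.90% each way, against 10.0% and 10.1% of all genes), with a median of -0.18, and of 16 Ras and MAP kinase genes 0 were called in that comparison. Eif4ebp1, the translation repressor that mTOR phosphorylates, was higher by 1.11 and the ribosomal protein gene Rps6 by 1.01 [0.91, 1.11], while Mlst8, an mTOR subunit, was lower (-1.61 [-2.19, -1.10]) with the AKT phosphatase gene Phlpp1 (-1.07 [-1.53, -0.64]). Eif4ebp1 was the 1 gene of the PI3K, AKT and mTOR list called for E(+)T(+) vs. E(-)T(+), at -1.06 [-1.17, -0.96]. That is 3.45% of the list, against 5.78% of all genes at this mean called lower and 5.56% higher. Akt1 differed by 0.32 [0.23, 0.40] and by 0.12 [0.04, 0.20] in these comparisons.

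FoxO factors, which AKT keeps out of the nucleus, and the genes they induce gave 7 of 18 genes higher and 1 lower at 2-fold for E(-)T(+) vs. E(-)T(-), against the same 10.0% and 10.1% of all genes. The mTOR inhibitor gene Ddit4 (2.11), the cell cycle inhibitor gene Cdkn1a (1.99), the mitophagy gene Bnip3 (1.90) and the ubiquitin ligase gene Trim63 (1.42) were higher. Fbxo32, another ubiquitin ligase gene, differed by -0.68 [-0.81, -0.55], and Pdk4, a brake on pyruvate use, was lower by -3.21 [-4.04, -2.57], so the list did not move as 1 group. With exercise in tumor-bearing mice, Pdk4 (2.26) and Cdkn1a (1.54) were higher and Klf15 (-1.45) and Eif4ebp1 (-1.06) lower. Eif4ebp1 stands in both this list and the previous one.

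**Figure D4:**
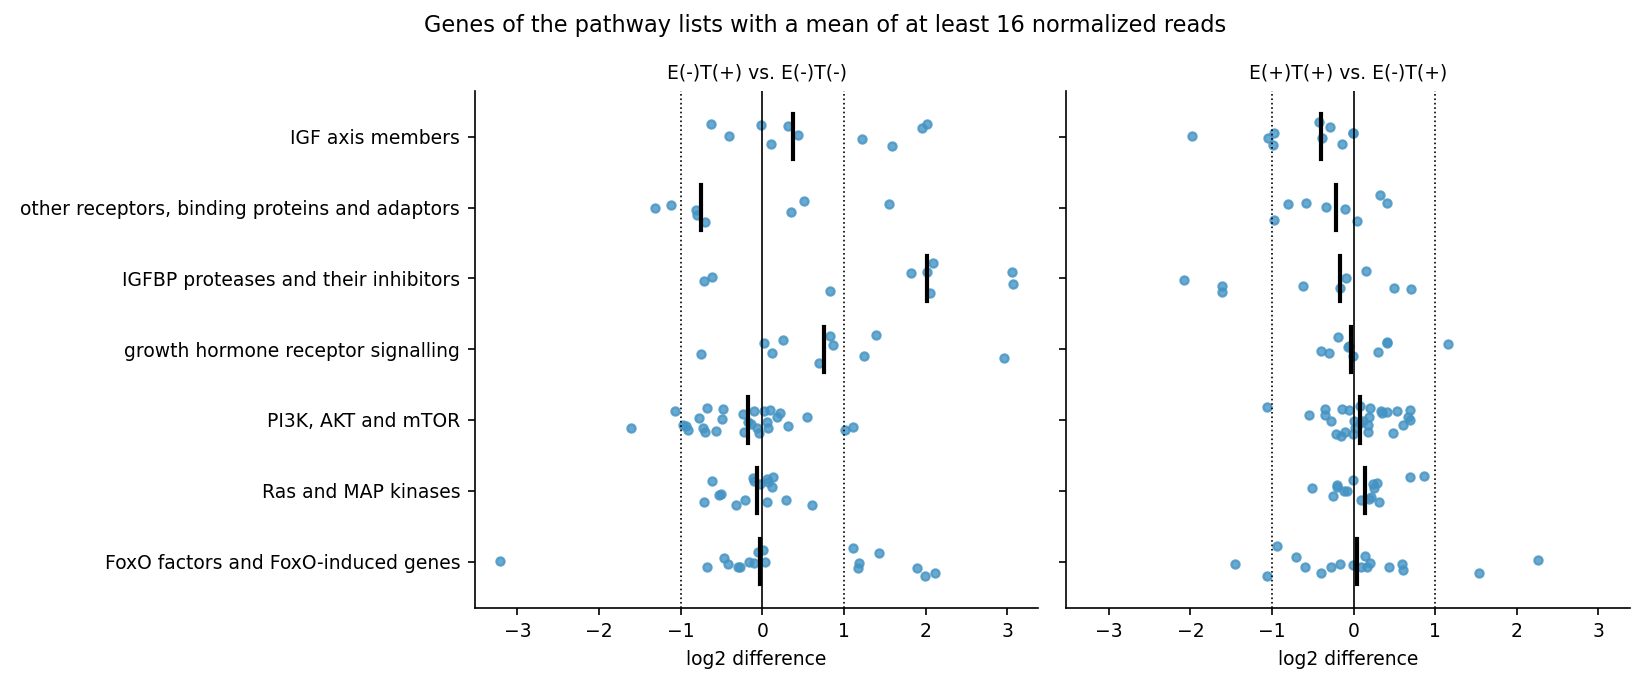
Log2 differences of single genes (points) in 7 lists around the IGF axis, with the median of each list as a black bar and dotted lines at 2-fold. In E(-)T(+) vs. E(-)T(-) the protease list has a median of 2.02, and the medians of the PI3K and MAP kinase lists lie near 0.

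Markers of other heart cells moved with some members. The 10 fibroblast markers summed to 40010 normalized reads (sedentary) and 47322 (exercised) without a tumor and 64633 (sedentary) and 42296 (exercised) with a tumor. The 10 macrophage markers summed to 3330, 4319, 7427 and 4558 in that order, and none of either list was at 0 in any library. Dcn and Gsn together made up most of the fibroblast sum in every library. For E(-)T(+) vs. E(-)T(-), 4 of 10 fibroblast and 7 of 10 macrophage markers were higher by 2-fold or more, against 10.0% of all genes at this mean. The macrophage markers Adgre1 (-0.374) and Csf1r (-0.112) were lower, under 2-fold. So were the fibroblast markers Gsn (-0.797), Tcf21 (-0.545) and Fbln1 (-0.167), and neither list moved as 1 group. For E(+)T(+) vs. E(-)T(+), 4 of 10 of each list were lower, against 5.78% of all genes, and 1 macrophage marker, Cd14, was higher (1.36 [1.16, 1.57]). The fibroblast markers Gsn (0.191) and Tcf21 (0.147) were higher there, under 2-fold. Igf1 and Igfbp4 ranked the libraries in the same order as the macrophage sum, with E(-)T(+) highest and E(-)T(-) lowest, and the part of these cells in the result was not tested.

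The other marker sums moved differently. Mural cell markers summed to 6213, 9007, 7028 and 6938 normalized reads in that order of libraries. Adipocyte markers summed to 3421, 1503, 2001 and 4686, with Lep at 0 reads outside E(-)T(-) and Plin1 and Pnpla3 at 0 in E(-)T(+). For E(+)T(+) vs. E(-)T(+), 6 of 8 adipocyte markers were higher by 2-fold or more, against 5.56% of all genes with a mean of 16 or more. For E(+)T(+) vs. E(+)T(-), 5 of 8 were higher, against 7.08%. Relative to E(-)T(-), 6 of 8 were lower in E(+)T(-), against 2.67% of all genes, and 6 of 8 in E(-)T(+), against 10.1%. So E(+)T(-) and E(-)T(+) were low in these markers, beside the higher E(+)T(+) sum. Lung epithelial markers summed to 1979, 1518, 1514 and 2891, with Sftpd at 0 in E(+)T(-), but Hopx, a gene that heart also expresses, made up most of the sum outside E(+)T(+). Of the 6 lung markers above the mean minimum, 5 were higher by 2-fold or more for E(+)T(+) vs. E(+)T(-), against 7.08% of all genes. Their median was 3.21, and among them were Scgb1a1 (3.64, 1123 reads against 108) and Sftpc (3.18, 292 against 38). For E(+)T(+) vs. E(-)T(+), 3 of 6 were higher, against 5.56% of all genes, with a median of 1.32. Skeletal muscle markers summed to 8275, 8471, 6141 and 9193, with Myod1 at 0 in every library and Myog, Myh1 and Myh4 at 0 to 4 reads. Ckm, a gene that heart also expresses, made up most of this sum in every library. Tnni2 had 7, 8, 42 and 33 reads and was called higher with the tumor, by 2.05 [1.04, 3.61] without exercise and 2.19 [1.18, 3.64] with it. Erythroid markers, 8 of 10 of them in the data, summed to 526658, 508532, 522633 and 3593600. E(+)T(+), where Igfbp3, Igfbp6, Igfbp7 and Irs1 were lowest, was thus also the library rich in erythroid RNA and with the highest lung and adipocyte sums. The adipocyte sum of E(-)T(+), where Igf1 and Igfbp4 were highest, was by contrast below that of E(-)T(-). The part of these cell types in the member values was not tested.

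**Figure D5:**
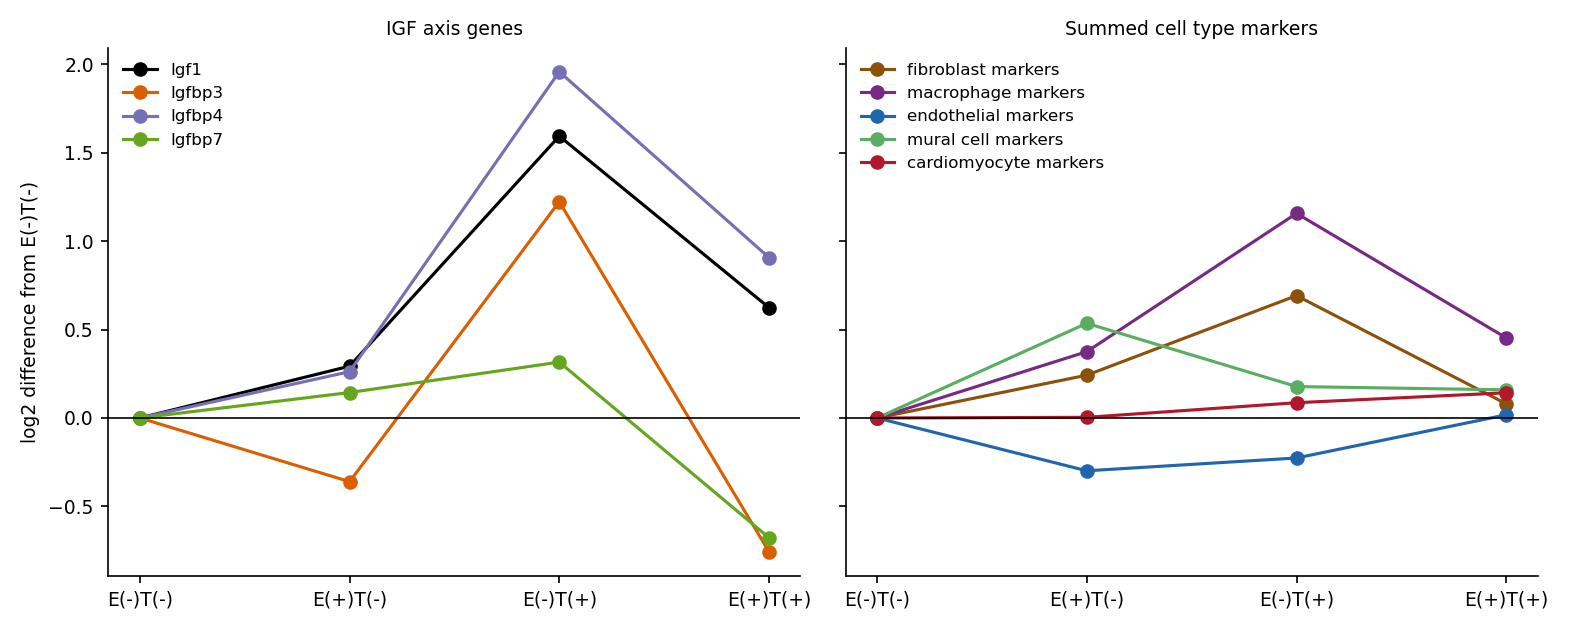
Log2 differences from E(-)T(-) of 4 IGF axis genes (left) and of the summed normalized reads of 5 marker lists (right) in the 4 libraries. Igf1 (1.59) and Igfbp4 (1.96) and the macrophage and fibroblast sums peak in E(-)T(+), while the cardiomyocyte sum stays within 0.15.

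For the 3 members with the widest range, the genes with the most similar profile were sought among 7074 genes whose mean normalized read count was 100 or more, by the Euclidean distance between centred log2 values over the 4 libraries. Nearest to Irs2 were Csrp2 (distance 0.20), Nbl1 (0.20) and Bhlhe40 (0.25), with 26 genes within 0.5. Nearest to Igfbp4 were Nqo1 (0.13), Gas5 (0.14) and Neat1 (0.15), with 69 genes within 0.5. Igfbp3 had the fewest, with 7 genes within 0.5, led by Ankrd1 (0.26), Chl1 (0.36) and Klf15 (0.43). Ankrd1, a stress-responsive cardiomyocyte gene, had log2 values of 16.40 (sedentary) and 16.05 (exercised) without a tumor and 17.50 (sedentary) and 15.33 (exercised) with a tumor. With 4 libraries, such a match is a description.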

How the data were processed

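Heart QuantSeq 3′ mRNA-seq of 4 groups was analysed, with 1 library per group. The authors aligned reads with Bowtie2 to mm10, counted them with Bedtools, applied quantile normalization in edgeR and deposited log2 values of these normalized read counts. Whole reads were recovered from a fit of the 4 library sizes and 1 shared dispersion (0.149), in which a value is log2(quantile-adjusted count + 1). No deposited value was missed by more than 0.000666, and 100% of 25460 values with 5 or more and under 100 reads came out within 0.1 of a whole read. The steps were tested on simulated reads.

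Differences are of deposited values with a pseudocount of 1, which understates changes of low genes. Groups came from sample titles. With 1 library per group, no test across conditions was planned or made. Members, lists and alternatives were chosen with earlier results of these data known. Named genes are all members, up to 4 genes per list and comparison with the largest difference among those that averaged 16 or more normalized reads, others at 2-fold, and the nearest profiles of the 3 members with the widest range. Ghr, Insr, Igf2r, Akt1 and Fbxo32, under 2-fold, were also given where the rule did not reach them. Coordinates are from GENCODE M21 and sequences from RefSeq GRCm38.p6, which share the assembly of mm10. Alternatives covered scaling, pseudocount, count minimum and depth. Scripts ran in Python 3.11.15 (scipy 1.17.1, numpy 2.4.6, matplotlib 3.10.9, pandas 2.3.3).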

Additional observations from a re-analysis of the deposited data

Results flagged for a closer look

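For 5 members the exercise difference went opposite ways with and without a tumor. The share of all genes that did so was not counted, so this count is not a result about the members. Genes with a mean of 16 or more split nearly evenly with exercise. Without a tumor 5923 were higher and 5698 lower, and with one 5748 were higher and 5874 lower. The difference with a tumor minus that without one was -1.26 for Igf1, -1.31 for Igfbp4, -1.14 for Igfbp7, -0.87 for Irs1 and -1.54 for Irs2. With a tumor the exercise differences of Irs1 (-0.29 [-0.62, 0.04]) and Irs2 (-0.39 [-0.88, 0.10]) were within counting error, so their direction is not shown. For Igf2 and Igfbp3 the tumor difference went opposite ways with and without exercise, by 0.30 for Igf2, whose counting interval of -0.03 to 0.64 included 0, and by -1.62 for Igfbp3. The tumor differences of Igf2 took the same direction under other scalings, at 0.0031 and 0.31 by median of ratios and -0.17 and -0.43 by library size. With 1 library per group, none of these differences was tested across mice.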

How the results depend on the processing

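No paired analysis was possible because each group has 1 library, and for the same reason no library could be left out. Division by library size gave 5 members lower for E(+)T(+) vs. E(-)T(+) (Igf1, Igfbp3, Igfbp4, Igfbp6 and Igfbp7) in place of 2, and 4 for E(+)T(+) vs. E(+)T(-) (Igfbp3, Igfbp6, Igfbp7 and Irs1) in place of 1. It moved the median of all genes by construction, to -0.59 and -0.74. Without genes over 1% of a library, 4 members (Igf1, Igfbp3, Igfbp4 and Igfbp7) were lower for E(+)T(+) vs. E(-)T(+), and the cause was not tested. The share of all genes called under these scalings was not counted, so the larger member counts have no background beside them and are not a result about the members. Of the 40 member differences, 17 stayed within their counting interval under library size, 34 without genes over 1%, 36 when scaled to cardiomyocyte markers, an alternative added after the data were seen, and all 40 under median-of-ratios scaling, a pseudocount of 4 or subsampling to the smallest library. No called difference changed direction under these settings. Depth limits Irs2 most, with 17 reads in E(-)T(-).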

Other observations

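Some genes of the axis had a mean under 16 normalized reads and entered no list count. They are named after their values were seen. Igfbp1, a binding protein that insulin represses in liver, had 0 reads in both libraries without a tumor, 31 in the sedentary tumor library and 2 in the exercised one. Against a floor of 3 reads per library, its value was at least 7.95-fold higher in E(-)T(+) than in E(-)T(-), which bounds the observed ratio only, since the counting interval reaches down to 2.61 on the log2 scale. The ratio of E(+)T(+) to E(-)T(+) had a counting interval from -6.75 to -1.67 on the log2 scale. The protease gene Adam12 had 7 reads (sedentary) and 3 (exercised) without a tumor and 42 (sedentary) and 10 (exercised) with a tumor, and so was also most read in E(-)T(+). Irs3 had 5 and 19 reads in E(-)T(-) and E(+)T(-) and 0 in both tumor libraries, where a count of 0 allows up to 3 reads. Irs4 and Insrr had 0 reads in every library, and Igfbp2 had 0 to 4. Foxo3, which many tissues express, had 0 or 1 read in every library, so a low count of 3′ reads cannot be read as a gene that is off.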
